A study of Mus musculus with 4 samples.

Results

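Among the cells dissociated from Dalton's lymphoma ascites (DLA) tumors, a set of myeloid cells carried more transcripts of Fn1, Vcan and Pid1 than of 7 genes that mark the other macrophages of these tumors. They are called Fn1-Vcan-Pid1 cells here and numbered 268 of the 4404 cells kept for analysis and of the 5332 deposited barcodes, of which Control 1 held 1, Control 2 held 2, Treated 1 held 152 and Treated 2 held 113. They were chosen in 3 steps from counts of unique molecular identifiers (UMIs), each UMI standing for 1 captured transcript. A barcode was kept if it had 200 or more detected genes and its mitochondrial share did not exceed 10%. A cell was placed in the myeloid gate when it held at most 2 UMIs of the keratins Krt8 and Krt18 together, at least 4 of Lyz2, Tyrobp, Fcer1g and Ctss, fewer than 2 of the B cell genes Cd79a, Cd79b and Ms4a1, and less than 2% of its UMIs on the neutrophil genes S100a8, S100a9 and Retnlg. Within that gate of 483 cells, the sum of Fn1, Vcan and Pid1 was set against the sum of Ccl2, Ccl7, Saa3, Fabp5, Spp1, Fcgr1 and Cd68. The 268 cells had the larger first sum, 143 cells with the larger second sum are called macrophage-side cells, and 72 cells had equal sums and are called tied.

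DLA is a transplantable mouse lymphoma that grows in the peritoneal cavity. All 4 samples came from Swiss albino mice injected intraperitoneally with DLA cells, 2 from control mice and 2 from mice given SP11, an inhibitor of the chaperone HSP90, by mouth for 17 days at 30 mg/kg. The former are called Control 1 and Control 2 and the latter Treated 1 and Treated 2. The labels call the controls untreated while the study's supplement speaks of vehicle, so what the controls received is not settled, and the age and sex of the mice are not given in the sources used here. Tumors were digested with collagenase IV and DNase I, red blood cells were lysed, and no cell type was sorted, so the myeloid cells were captured together with the tumor cells. The study refers to separate sets of control and SP11 samples but does not say how many animals made up each, and p-values therefore measure only the spread between these samples.

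Monocytes are blood-borne phagocytes that enter inflamed tissue and turn there into macrophages or dendritic-like cells. Fn1 encodes fibronectin, an adhesive glycoprotein of plasma and extracellular matrix, and Vcan encodes versican, a large chondroitin sulfate proteoglycan; both are made by monocytes and some macrophages. Pid1 encodes an adaptor with a phosphotyrosine-interaction domain that acts in insulin signaling, and Lyz2 encodes the lysozyme of myeloid cells. The peritoneal cavity holds resident large macrophages that depend on the transcription factor Gata6 and smaller macrophages that derive from monocytes.

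The label of these cells as monocyte-like was checked against markers of the cell types the tumors could hold. Ly6c2, the surface antigen that defines classical monocytes, had 0 UMIs in the Fn1-Vcan-Pid1 cells and in every other cell of the myeloid gate in all 4 samples. Its absence therefore does not set these cells apart, but it leaves the label without its defining gene. The cells are named by the genes of the first sum, which not every cell carries. The other 19 of 20 classical monocyte markers were detected, and their summed level was 10684 and 12233 counts per 1000000 UMIs of the class (CPM) in Treated 1 and Treated 2, against 9272 and 9180 in the macrophage-side cells of the same samples and 10800 and 10694 in the whole myeloid gate of the controls. The list thus stood about as high in the control gates, which were mostly macrophage-side cells, as in this population. Of the resident large peritoneal macrophage markers, Gata6 had 2 and 0 UMIs, Timd4 had 4 and 3, and Vsig4 had 0 in both samples. That list had UMIs of 13 of 16 genes and summed to 374 and 280 CPM against 662 and 575 in macrophage-side cells. The tissue macrophage list, with 14 of 16 genes detected, summed to 4137 and 4215 CPM against 5352 and 3249. The small peritoneal macrophage list, with 10 of 12, summed to 2226 and 2427 against 2528 and 2283. For the last 2 lists the classes overlapped. The dendritic cell genes Zbtb46 and Clec9a were at 0 UMIs in both, and Flt3 had 2 and 1. Of the whole dendritic cell list 12 of 18 genes had UMIs, with a summed level of 4523 and 2560 CPM against 5298 and 6306 in macrophage-side cells. In the Fn1-Vcan-Pid1 cells the protease inhibitor gene Cst3 alone made up 4149 and 2245 CPM of that sum. The T cell gene Cd3e was at 0, the neutrophil receptor Cxcr2 had 0 and 3 UMIs and Ly6g had 1 and 1. Among fibroblast genes Col1a1 had 1 and 0 UMIs, and the 16 UMIs of Dcn in Treated 1 came from 1 cell.

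Red blood cell transcripts were present in part of these cells. In 44 of the 265 Fn1-Vcan-Pid1 cells of the SP11 samples (16.6%, 95% exact interval 12.3% to 21.6%) hemoglobin genes made up at least 5% of the UMIs, with a median of 32.7% in those cells. Hemoglobin held 7.92% and 9.69% of the UMIs of all Fn1-Vcan-Pid1 cells in Treated 1 and Treated 2, close to the 9.13% and 7.59% of the macrophage-side cells, while 1 of the 54 control myeloid cells passed the same limit. The part of these transcripts in the results was not tested, and counts that rest on these barcodes are given with and without them.

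The 4 libraries held between 9574906 and 13024964 UMIs in kept cells. Between 60 and 359 barcodes were shared by a pair of libraries, and no barcode was an Fn1-Vcan-Pid1 cell in both of its libraries. The profiles of a shared barcode were about as alike as those of neighbouring barcodes. The median correlation was 0.485 against 0.482 for Treated 1 and Treated 2. The widest gap among the pairs was 0.773 against 0.805, for Control 2 and Treated 2. The Fn1-Vcan-Pid1 cells were shallow, with a median of 991.5 UMIs and 570.5 genes per cell in Treated 1 and 1758 UMIs and 950 genes in Treated 2, and the macrophage-side cells of the same samples had medians of 1170 and 2632 UMIs. None of the 268 cells was called a doublet. All intervals below cover counting error only.

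The first comparison asks how large a part of the tumor's cells this population was with and without SP11. Of the kept cells of Control 1, 0.109% were Fn1-Vcan-Pid1 cells, with an exact 95% Clopper-Pearson interval from 0.00276% to 0.607%, and of those of Control 2 the share was 0.353% (0.0428% to 1.27%). It was 8.30% for Treated 1 (7.08% to 9.66%) and 10.4% for Treated 2 (8.61% to 12.3%). Both SP11 samples lay above both controls and the intervals did not overlap. The mean was 0.231% ± 0.173 (SD, n = 2) in controls and 9.33% ± 1.45 (SD, n = 2) in SP11 samples, a difference of 9.10 percentage points with a two-sided exact permutation p of 0.333, the smallest that 2 against 2 samples allow. The population was proposed with this shift already known, so its direction is a description and not independent evidence.

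The same order held when only myeloid cells were counted. Fn1-Vcan-Pid1 cells were 2.94% and 10.0% of the myeloid gate of the controls and 60.1% and 64.2% of that of Treated 1 and Treated 2, a difference of 55.7 percentage points between the group means (two-sided exact permutation p = 0.333). The macrophage-side cells, in contrast, made up 3.28%, 3.0%, 3.11% and 3.57% of kept cells in the same order of samples, so their share of all cells stayed within a narrow range in both groups. A model of cell counts per class in edgeR, with the other kept cells as one of 4 classes, gave a log2 difference of 5.41 (SE 0.323) for Fn1-Vcan-Pid1 cells, 3.06 (SE 0.435) for tied cells and 0.05 (SE 0.211) for macrophage-side cells, each a description for the reason given above. Tied cells thus had a larger share with SP11 too, at 0.328% and 0.177% of kept cells in the controls and 2.40% and 2.20% in the SP11 samples. Without the barcodes that held at least 5% hemoglobin, 1, 2, 124 and 97 Fn1-Vcan-Pid1 cells were left and the difference between groups was 8.41 points of kept cells. With the 2 sums read from 500 randomly drawn UMIs of each myeloid cell, the counts were 5, 1, 130 and 82. These were 14.7%, 5.0%, 51.4% and 46.6% of the myeloid gate, a smaller difference of 39.1 points between the group means.

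**Figure D1:**
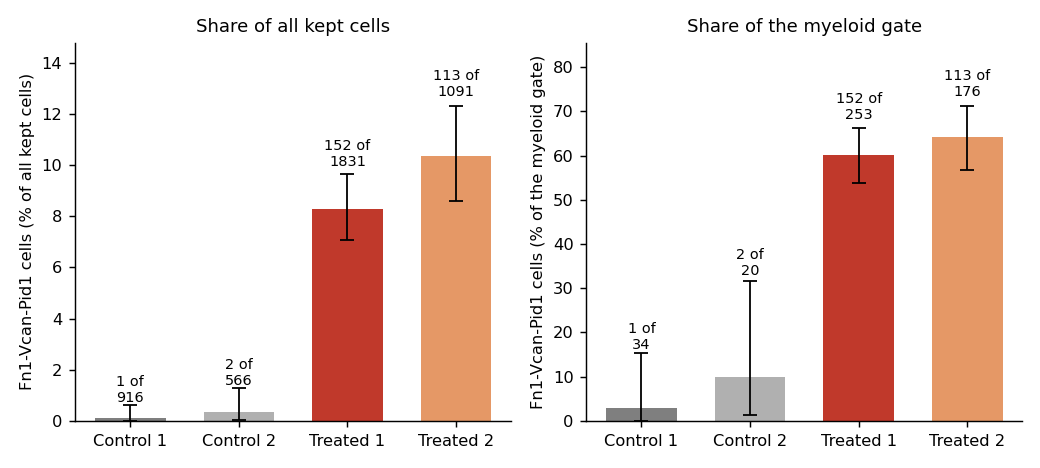
Fn1-Vcan-Pid1 cells as a share of all kept cells (left, %) and of the myeloid gate (right, %) in each of the 4 samples; bars are the share of 1 sample, error bars its 95% exact Clopper-Pearson interval, and the counts stand above each bar. The controls reach 0.353% of kept cells at most, and the SP11 samples 8.30% and 10.4%.

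All 3 control cells of the population sat at the edge of the gate. Their first sum exceeded the second by 1 UMI each, with 3 UMIs against 2 in Control 1 and 2 against 1 and 9 against 8 in Control 2. When a margin of at least 2 UMIs was asked for, 0 cells were left in either control, 132 in Treated 1 and 98 in Treated 2. In the SP11 samples the margin was wider, and 111 of the 265 cells had no UMI of any of the 7 macrophage-side genes. The first sum had a median of 4 UMIs in Treated 1 and 9 in Treated 2, with highest values of 20 and 48. Near the threshold of the SP11 samples lay 35 cells with 1 UMI more of the first sum, 33 with 2 more, 31 with 1 fewer, and 68 tied cells, of which 45 had no UMI of either sum.

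**Figure D2:**
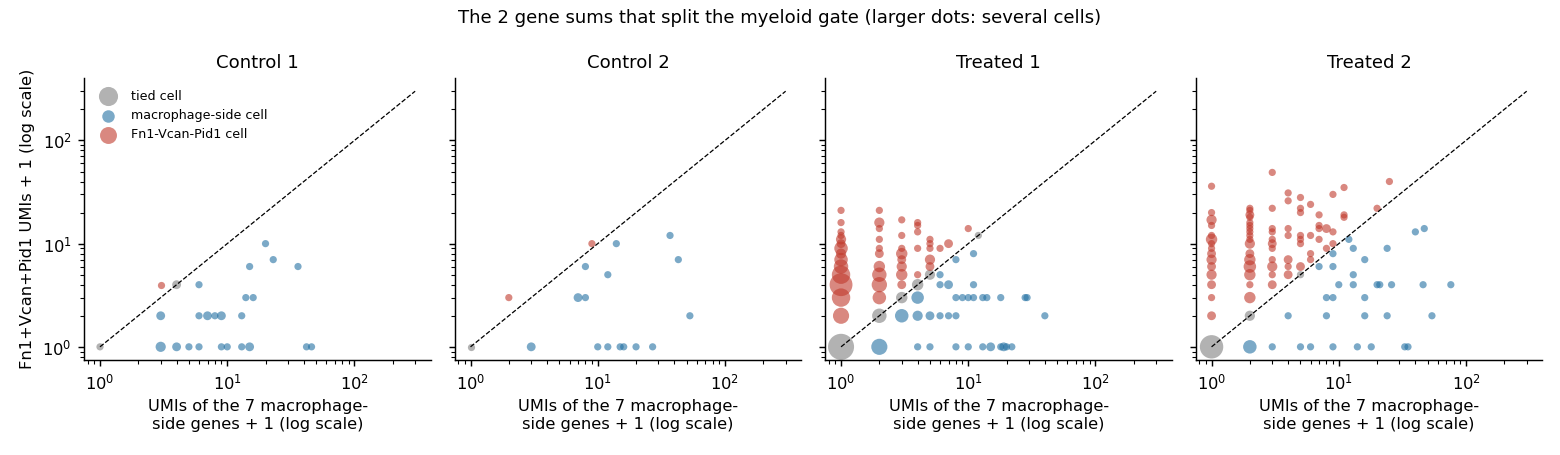
UMIs of Fn1, Vcan and Pid1 (vertical) against UMIs of the 7 macrophage-side genes (horizontal), each plus 1 on a log scale, for every cell of the myeloid gate in each sample; larger dots stand for several cells and the dashed line marks equal sums. Control cells lie mostly below the line, and the SP11 samples add cells that climb to a first sum of 48 UMIs while the second sum is often 0.

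The genes that chose the cells are given as levels only. Fn1 stood at 3722 CPM in the Fn1-Vcan-Pid1 cells of Treated 1 (95% exact Poisson interval 3436 to 4025) and 3953 in Treated 2 (3698 to 4222), from 627 and 891 UMIs. Macrophage-side cells held 689 and 591 CPM of Fn1 in these samples and 510 and 520 in Control 1 and Control 2, so their low level was alike in all 4. Pid1 stood at 908 and 1167 CPM in Treated 1 and Treated 2, against 176 and 167 in macrophage-side cells. Vcan stood at 338 and 297 against 108 and 158. Lyz2, which admitted a cell to the myeloid gate but did not split the gate, stood at 8411 and 9167 against 4812 and 4065.

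This small population held a large part of the transcripts of these genes in the SP11 tumors. The gates chose cells for these transcripts, so the shares are descriptions. The population accounted for 53.0% and 78.2% of all Fn1 UMIs of kept cells in Treated 1 and Treated 2, 51.0% and 79.7% of Pid1, 52.8% and 72.8% of Vcan, and 45.0% and 70.9% of Lyz2. To set depths equal, each cell was thinned to 500 UMIs, and cells gated by their B cell genes were added as cells that should lack these transcripts. At that depth Fn1 was seen in 77.0% and 72.6% of the Fn1-Vcan-Pid1 cells, 28.1% and 12.8% of the macrophage-side cells, and 3.33% and 1.26% of the B-gated cells, an order between the classes that the gate itself sets. Unthinned, 142 of 152 and 108 of 113 Fn1-Vcan-Pid1 cells had at least 1 UMI of Fn1, 89 and 85 had Pid1, and 39 and 37 had Vcan. Most of these cells thus had no Vcan UMI. Unthinned shares with Vcan were 25.7% and 32.7% in Treated 1 and Treated 2, against 12.3% and 30.8% in macrophage-side cells, close in Treated 2. Hbb-bs, a hemoglobin gene, was seen in 74.3% and 72.6% of the thinned Fn1-Vcan-Pid1 cells and in 68.9% and 68.6% of the B-gated cells, a like share in both.

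Tppp3 and Ccl9 had been proposed as further markers with these data known, and they are likewise given as descriptions. Tppp3, a tubulin-binding protein, stood at 493 and 630 CPM in Treated 1 and Treated 2 against 108 and 117 in macrophage-side cells, and was seen in 19.7% and 26.5% of thinned cells against 3.51% and 7.69%, with 2.22% and 4.40% in the B-gated cells. The chemokine Ccl9 differed less, at 926 and 1012 against 716 and 608, and was seen in 29.6% and 40.7% of thinned cells against 31.6% and 28.2%. The share of thinned cells with Tppp3 was therefore higher than in macrophage-side cells in both samples. In Treated 2 the counting intervals overlapped (18.7% to 35.7% against 1.62% to 20.9%). The shares of cells with Ccl9 overlapped between the classes.

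The next comparison asks what else set these cells apart from the macrophage-side cells of the same tumors. UMIs were summed per class in Treated 1 and Treated 2 and tested in edgeR with the sample as a block, over 2098 genes. Outside the 22 genes of the gates, 21 genes, Tppp3 among them, were higher in the Fn1-Vcan-Pid1 cells (1.00% of those tested) and 92 were lower (4.39%). These counts depended on the settings. Without the hemoglobin-bearing barcodes 21 were higher and 79 lower, without hemoglobin and immunoglobulin genes 106 and 166, and with a mitochondrial limit of 20% 103 and 163. The genes of the gates were picked from these data, so these calls state how well a difference repeated over the 2 samples.

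S100a4, a calcium-binding protein of motile cells, stood at 1460 and 1797 CPM against 622 and 500 (log2 fold change 1.46, SE 0.191, adjusted p = 0.00798). Crip1, a LIM-domain protein, stood at 8209 and 7086 against 4068 and 3224 (0.95, adjusted p = 0.0057). Cd44, the cell surface receptor for hyaluronan, stood at 790 and 1118 against 460 and 408 (1.06, adjusted p = 0.0337). Both samples of the population lay above both samples of the macrophage-side cells for each of these genes. Ahnak, a giant scaffold protein, rose by 1.36 (adjusted p = 0.0121) and the metalloprotease Adam15 by 1.39 (adjusted p = 0.0488). S100a4 was the 1 gene called of 17 S100 and annexin genes tested, Cd44 the 1 of 10 integrins and adhesion receptors, and Crip1 the 1 of 9 genes listed for matrix and coagulation. Of 7 protease genes, Adam15 was higher and 2 cathepsins were lower.

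The lysozyme paralog Lyz1 had 21 and 29 UMIs in 11 and 9 cells against 0 and 2 UMIs in macrophage-side cells (adjusted p = 0.0361), a ratio of 12.3 over both samples with an exact counting interval of 3.24 to 104.5. Lyz1 is nearly identical to the far more abundant Lyz2, so its reads may have been assigned between the copies and its level is uncertain. Prxl2b, a thioredoxin-like prostaglandin synthase, had 39 and 22 UMIs against 1 and 3 (log2 fold change 2.68, SE 0.541, adjusted p = 0.0348). The chemokine Cxcl14 had 14 and 33 UMIs against 1 and 1 (adjusted p = 0.0318), a ratio of 11.6 with a counting interval of 3.03 to 98.4, and was the 1 ligand called higher of 10 tested. The immediate-early factor Egr1 stood at 979 and 1136 CPM against 378 and 433 (1.26, adjusted p = 0.00798), while Jun, of the same early response, fell by 0.91 (adjusted p = 0.0209). The apolipoprotein Apoc2, the phospholipase Plcb1, the splicing factor Mbnl1 and BC005537 were also higher, by 1.47, 1.37, 1.39 and 1.76 on the log2 scale.

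Both ferritin genes and single genes of the lysosome and of class II presentation were lower. The ferritin chains Ftl1 and Fth1 stood at 3989 and 3860, and at 4303 and 4570 CPM, against 10772 and 12662, and 9475 and 11346, in macrophage-side cells. They fell by 1.70 and 1.35 on the log2 scale (adjusted p = 0.00035 and 0.000798). Wfdc17, a secreted protease inhibitor of activated macrophages, stood at 629 and 559 against 3271 and 2907 and fell by 2.50 (SE 0.129, adjusted p = 0.00035). The cathepsin Ctsl fell by 1.93 (adjusted p = 0.00163), and Ctsd and the cholesterol carrier Npc2 fell by 0.69 and 0.73. Of the 18 lysosomal genes tested 2 were higher and 3 lower, with a median log2 difference of -0.54 against -0.02 over all genes. The invariant chain Cd74 stood at 6233 and 4828 against 9650 and 8622 (adjusted p = 0.00687), and Cd74 and H2-Eb1 were the 2 of 8 class II genes called, both lower. Over all genes tested 1.00% were higher and 4.39% lower. Ctsd, Npc2 and H2-Eb1 lost the call under 5, 3 and 4 of the alternative settings. With the lipid carrier gene Apoc2 higher and both ferritins lower, 3 of 15 lipid and iron handling genes were called.

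Further lower genes were spread over several roles. The membrane-attached neuronal and myeloid protein Basp1, the ribonuclease inhibitor Rnh1, the ubiquitin gene Ubb, the cathepsin inhibitor Cstb and Plac8 fell by 2.10, 1.30, 1.18, 1.07 and 1.14. Plac8 is itself on the classical monocyte list, so of the 15 genes of that list that were tested S100a4 was higher and Plac8 lower, with a median of -0.17. The inhibitory Fc receptor Fcgr2b fell by 1.15 (adjusted p = 0.0492), the complement component C1qb by 0.97 (adjusted p = 0.0485) and the chemokine Ccl3 by 1.38 (adjusted p = 0.0349). The glycolytic enzymes Gapdh, Gpi1 and Aldoa fell by 0.55, 0.74 and 0.82, which makes 3 lower and 0 higher of 15 tested. The histone gene Hist1h1b, the 1 cell cycle gene with enough counts to be tested, fell by 2.21. Fcgr2b was the 1 gene called of 19 Fc and pattern receptors, C1qb the 1 of 8 complement and of 10 tissue macrophage genes, Egr1 and Jun the 2 of 27 transcription factors, and Lyz1 the 1 of 4 genes of small peritoneal macrophages. With 1.00% of all genes called higher and 4.39% lower, single calls in lists of this size say nothing about the lists.

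**Figure D3:**
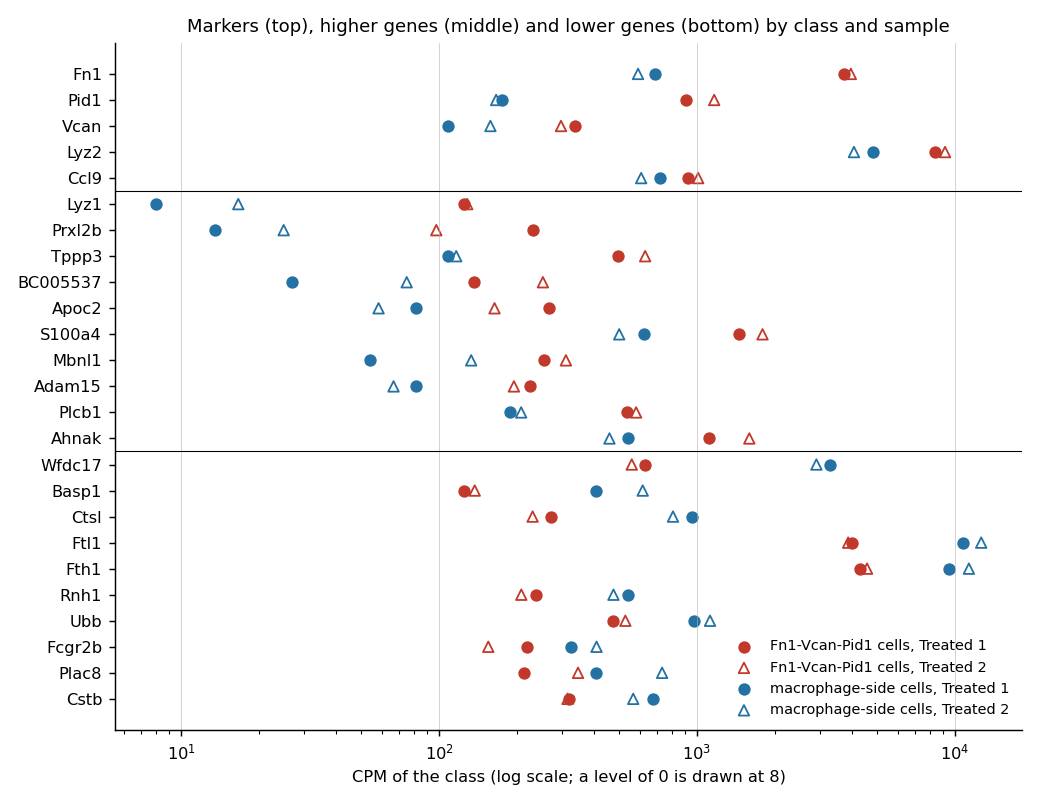
Levels in CPM (log scale) of 5 marker genes, 10 genes higher and 10 genes lower in Fn1-Vcan-Pid1 cells (red) than in macrophage-side cells (blue), in Treated 1 (filled circles) and Treated 2 (open triangles), with a level of 0 drawn at 8. The higher and lower genes were selected for classes that do not overlap, and Fn1, Pid1, Vcan and Lyz2 are genes of the gates, so the plot shows the size of the gaps, from Fn1 at 3722 and 3953 against 689 and 591 to Wfdc17 at 629 and 559 against 3271 and 2907.

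Several lists held no gene past the threshold. None of 14 interferon-response genes, 12 heat shock genes, 14 inflammatory genes, 5 chemokine receptors, 5 nonclassical monocyte genes, 6 genes of macrophage polarization, 2 genes of large peritoneal macrophages and 3 dendritic cell genes was called in edgeR, where 1.00% and 4.39% of all genes were. Of these 59 genes 18 had an unadjusted p under 0.05, where 452 of all 2098 did, and DESeq2 called 0. The heat shock list, which holds the chaperones that respond to HSP90 inhibition, had a median log2 difference of -0.19, and the interferon list one of -0.38. Ccr2, the receptor that draws monocytes out of the marrow, had 52 and 85 UMIs against 7 and 28 (log2 fold change 0.87, SE 0.275, adjusted p = 0.124). Arginase (Arg1), at 784 and 905 CPM against 689 and 608, had an adjusted p of 0.408, and the inflammatory cytokine Il1b had one of 0.18. Csf1r, the receptor for the macrophage growth factor, had an adjusted p of 0.462, and Nos2 was at 0 UMIs in both samples.

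Levels of genes that were not called show what the population had besides its markers. Among chemokines, Ccl6 stood at 4345 and 3789 CPM against 4974 and 4215 in macrophage-side cells, Cxcl2, which attracts neutrophils, at 3597 and 3634 against 3190 and 2699, and Ccl24, which attracts eosinophils, at 623 and 519 against 500 and 508. The myeloid transcription factor Spi1 stood at 499 and 501 against 527 and 483. The values of the classes interleave or lie close for these genes. The genes for HSP90, the target of SP11, gave log2 differences of -0.21 (SE 0.123) for Hsp90ab1 and 0.33 (SE 0.194) for Hsp90aa1, with adjusted p of 0.383 and 0.39 in edgeR. Zeb2, a repressor active in monocytes, stood at 1454 and 1677 against 973 and 1041 (adjusted p = 0.0751), and S100a6 at 5010 and 5041 against 3514 and 3116 (adjusted p = 0.0575). F13a1, a coagulation factor subunit of monocytes, stood at 178 and 257 against 270 and 433 (adjusted p = 0.0722).

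Quantities that can reflect the state of a cell's RNA also differed between the classes. Genes of cytosolic ribosomal proteins took 14.7% and 13.8% of the UMIs of Fn1-Vcan-Pid1 cells against 20.6% and 21.0% in macrophage-side cells and 26.2% and 26.8% in the macrophage-side cells of the controls. Of the 79 ribosomal protein genes tested 49 were lower and 0 higher, a list added after the values were seen, and these are 49 of the 92 lower calls. Gm42418, a gene model that overlaps ribosomal RNA, took 6.86% and 5.67% of UMIs against 3.40% and 2.01% in macrophage-side cells, and 0.884% and 1.2% in those of the controls. Mitochondrial genes took 1.06% and 1.25% against 0.720% and 1.2%. The part of these differences in the calls above was not tested. With 1 residual degree of freedom the number of calls moved with the settings, from 6 to 106 higher and from 33 to 173 lower, and, apart from Tppp3, which was chosen for this pattern, the named genes called under every setting with a test were S100a4, Crip1, Egr1, Ahnak and Gm42418, all higher, and Wfdc17, Basp1, Ctsl, Ftl1, Fth1, Cd74 and Ubb, all lower.

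The Fn1-Vcan-Pid1 cells of Treated 1 and Treated 2 had much the same profile. Of 1098 genes with at least 50 UMIs over both samples, 956 (87.1%) differed by less than 1.5-fold between them, 54 were higher in Treated 1 and 88 in Treated 2, and the log2 levels had r = 0.955 across genes, which share libraries and are not independent. Without the hemoglobin-bearing cells 802 of 913 genes (87.8%) stayed within that range. The widest gap was Retnla, a secreted product of alternatively activated macrophages, at 29.7 CPM in Treated 1 (95% exact Poisson interval 9.64 to 69.3) and 324 in Treated 2 (254 to 407). Its 5 and 73 UMIs came from 2 and 10 cells, with 58% of those of Treated 2 in 1 cell. The protease inhibitor Cst3 went the other way, at 4149 and 2245, with 13.9% of its UMIs in Treated 1 from 1 cell, and Prxl2b stood at 231 and 97.6. With no further replicate, these gaps describe 2 samples.

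Within the population the cells fell into 3 subgroups when clustered on their own, each present in both samples. Subgroup 1 held 117 cells (42.8% of the population in Treated 1 and 46.0% in Treated 2), subgroup 2 held 77 (30.3% and 27.4%) and subgroup 3 held 71 (27.0% and 26.5%). The genes that define a cluster are no test of it, and the levels below are descriptions. Subgroup 1 led with Tmem176a, Chil3, Hp, Cd74, Napsa and Plac8. Chil3 and Hp, secreted products of classical monocytes, stood at 220 and 355 CPM there against 23.1 and 78.6 in the other cells of the population. The whole classical monocyte list differed little, with a sum of 12234 CPM against 11025 in the other cells, and it reached 11668 in subgroup 3. Cd74 and the class II gene H2-Aa stood at 8558 and 2545 against 2858 and 976. Ccr2 and Vcan were also higher, at 479 and 439 against 240 and 213. The dendritic cell list summed to 4628 against 2391, of which Cst3 alone made up 4211 and 2114. Its level in subgroup 1 was uneven between samples, at 6603 CPM in Treated 1 and 2589 in Treated 2.

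Subgroup 3 led with the complement genes C1qb, C1qa and C1qc, which tissue macrophages make, together with Lyz1, Pf4, Hal and Ctsd. C1qa and C1qb stood at 994 and 767 CPM there against 54.5 and 29.1 in the other cells. In Treated 1 and Treated 2 taken alone C1qa stood at 932 and 1036 in subgroup 3 and at 69.6 and 37.8 in subgroup 1, so the pattern was the same in both. Arg1 stood at 1466 against 589 in the other cells and Ctsd at 3083 against 778. Lyz1 had 44 UMIs in this subgroup, 6 in subgroup 1 and 0 in subgroup 2. Ccr2 and Vcan were lower there, at 152 and 185 against 433 and 371, while Fn1 was high in all, at 3598, 3230 and 4751 in subgroups 1, 2 and 3.

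Subgroup 2 led with the hemoglobin genes and held 32 of the 44 cells with at least 5% hemoglobin. Its median cell carried 1.10% hemoglobin UMIs and its level of Hbb-bs was 126088 CPM. When hemoglobin genes were left out before clustering, 3 clusters formed again, of 130, 74 and 61 cells, led by C1q genes, by class II genes and by Hp, S100a9 and Chil3. A finer resolution of 1.0 gave 7 clusters, so their number depends on that choice. Subgroup 1 did not hold together, since its 117 cells spread over the 3 clusters made without hemoglobin genes as 16, 57 and 44 cells. At the finer resolution 46 of them fell in a cluster with Hp at 646 and Cd74 at 3927 CPM and 45 in another with Hp at 116 and Cd74 at 15063 CPM. Counted per cell, 53 of the 265 cells had a C1q UMI, 97 (36.6%) had a UMI of Chil3, Hp or Plac8, and 8 had both. After thinning to 500 UMIs these became 40, 57 and 1 cells. These genes lead clusters of the same cells, so their low overlap is a description and no test of the split. Unthinned, 187 cells had a UMI of H2-Aa, H2-Ab1 or H2-Eb1. Of these, 41 also had a C1q UMI and 61 one of Chil3, Hp or Plac8.

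**Figure D4:**
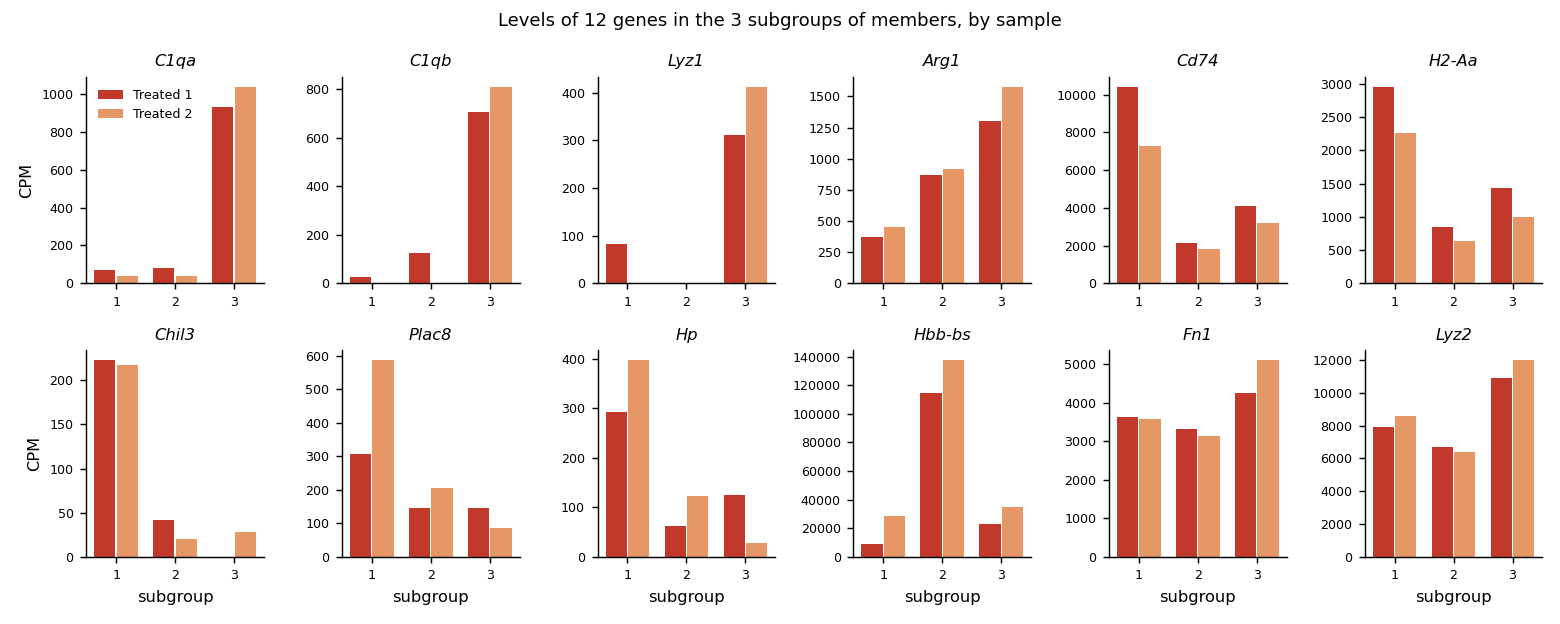
Levels in CPM of 12 genes in the 3 subgroups of Fn1-Vcan-Pid1 cells, with Treated 1 (dark bars) and Treated 2 (light bars) drawn separately and every vertical axis starting at 0. C1qa and C1qb peak in subgroup 3, Cd74, H2-Aa, Chil3, Plac8 and Hp in subgroup 1 and Hbb-bs in subgroup 2, in both samples, whereas Fn1 and Lyz2 are present in all 3.

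The last comparison asks how the myeloid cells as a whole differed between SP11 and control tumors, since 3 control cells are too few to compare the population with itself. UMIs of all cells of the myeloid gate were summed per sample and 2498 genes were tested in edgeR, with 53 called higher in SP11 samples (2.12%) and 33 lower (1.32%) outside the 22 genes of the gates. The Fn1-Vcan-Pid1 share of this gate went from at most 10.0% to at least 60.1%. Sums over the gate do not separate more cells of one kind from more RNA per cell. Control 1 and Control 2 contributed 34 and 20 cells, and hemoglobin-bearing barcodes were nearly all from SP11 samples. Without control replicate 1 no gene was called in edgeR, although 499 had an unadjusted p under 0.05, and with the replicate number as a block 7 were higher and 2 lower. In DESeq2 the balance of calls turned, with 23 higher and 77 lower, for a reason that was not tested.

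Several genes that marked the population were also higher in the SP11 gates. Fn1 stood at 586, 686, 2464 and 2509 CPM of the myeloid gate in the controls and then the SP11 samples, and Pid1 at 184, 196, 639 and 739, as descriptions. Tppp3 stood at 50.2, 58.8, 368 and 413, also as a description. S100a4 stood at 335, 353, 1126 and 1232 (log2 fold change 1.89, adjusted p = 0.000979), and Crip1 rose by 1.46 (adjusted p = 0.0022). Cd44 stood at 151, 411, 657 and 799 (1.52, adjusted p = 0.0328). Ccr2, which was not called between the classes, stood at 67.0, 97.9, 257 and 311 (1.91, adjusted p = 0.0254), from 4 and 5 UMIs in the controls. For each of these genes both SP11 samples lay above both controls. For S100a4, Crip1, Cd44 and Ccr2 the log2 difference between the classes was smaller, at 1.46, 0.95, 1.06 and 0.87. For the lower genes Wfdc17, Fth1 and Ctsl, given below, the difference between the classes was the larger. How far cell shares and levels within cells each contributed was not tested.

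Of the other genes named between the classes, some had the same direction here and some did not. Egr1 rose by 1.67 (adjusted p = 0.0185), and Ahnak and Mbnl1 rose by 2.01 and 2.02. Lyz1 had 0 UMIs in both controls and 21 and 31 in the SP11 samples. Wfdc17, Fth1 and Ctsl fell by 1.87, 1.04 and 1.05 (adjusted p = 0.000997, 0.02 and 0.0289). Ftl1 and Cd74, both lower in Fn1-Vcan-Pid1 cells than in macrophage-side cells, were not called between the conditions (adjusted p = 0.083 and 0.0865). Gm42418 rose by 1.97, and 15 of the 79 ribosomal protein genes fell. Ctsd and C1qb, lower in Fn1-Vcan-Pid1 cells than in macrophage-side cells, had log2 differences of 0.64 and 0.36 between the conditions, and Prxl2b, higher in Fn1-Vcan-Pid1 cells, had one of -0.21 (adjusted p = 0.0751, 0.541 and 0.864). This comparison and the one between classes share the SP11 cells, so their likeness is not independent evidence. The lists for class II presentation, complement, interferon response, glycolysis and heat shock, with 58 genes tested, held no gene called in edgeR, 15 with an unadjusted p under 0.05, where 584 of all 2498 had one, and 3 called by DESeq2.

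**Figure D5:**
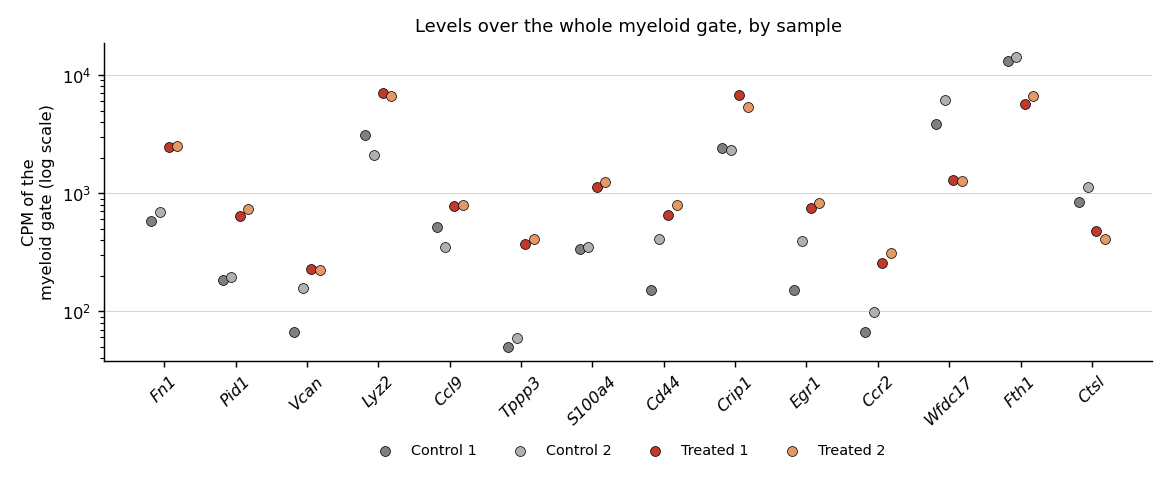
Levels of 14 genes in CPM of the whole myeloid gate (log scale) with the controls in grey and the SP11 samples in red and orange, 1 point per sample. Both SP11 samples lie above both controls for the genes from Fn1 to Ccr2, for example S100a4 at 1126 and 1232 against 335 and 353, and below them for Wfdc17, Fth1 and Ctsl.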

How the data were processed

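Single-cell RNA-seq of DLA tumors was analysed from 4 samples, 2 control and 2 SP11, made on the 10x Genomics Chromium 3′ platform. The deposited files hold 1 matrix of UMI counts a sample, which the authors left unnormalized; Cell Ranger 7.1.0 is named in the file headers and mm10 in the submitters' processing notes, while the study's text names a human build. No value column was left unmapped to a sample (0 columns). Precision is that of counting UMIs, with 9574906 to 13024964 UMIs per sample in kept cells.

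The filters on cells and the gates are those given with the cells, and doublets, called with Scrublet in scanpy 1.11.5 (126 of 4404 cells), were kept. UMIs were summed per sample and class and compared by edgeR's quasi-likelihood test (version 4.0.16 under R 4.3.3) after TMM scaling and filterByExpr, with p-values adjusted by Benjamini-Hochberg and called under 0.05. The classes were compared in the SP11 samples with the sample as a block, and the conditions over the myeloid gate without a block. Levels are counts per 1000000 UMIs of the class (CPM). Shares were compared with two-sided exact permutation tests, with Clopper-Pearson intervals at 95% from scipy 1.17.1. Members were clustered by the Leiden method (leidenalg 0.10.2) on 1000 variable genes, 15 components and 15 neighbours at a resolution of 0.5.

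The members and all gene lists were chosen with earlier results of these data known. Genes named are the markers, the genes of the gates, list genes that were called or that check the label, and up to 10 called genes of each direction with the largest fold, at least 20 UMIs in the higher class of each sample and no overlap of the classes. Genes were also named where a subgroup, a gap between samples or levels of uncalled genes were described, and these were chosen after their values were seen.

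On simulated data the step between classes recovered 69.8% of 192 changed genes among 1936, with 11 unchanged genes among its 145 calls, and the step between conditions 35.8% of 190 among 2320, with 1 unchanged gene among 69 calls. The alternatives were DESeq2 1.42.0, no filter on low counts, at least 500 genes, a mitochondrial limit of 20%, doublets left out, a replicate block or none, a stricter gate, all other myeloid cells, thinning to 500 UMIs, a cell-count model in edgeR, and leaving out single samples. Leaving out hemoglobin and immunoglobulin genes, or the hemoglobin-bearing barcodes, was added after the data were seen. Some genes that the rule would name are not reported here.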

Additional observations from a re-analysis of the deposited data

How the results depend on the processing

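Between classes, the 21 higher and 92 lower genes became 6 and 41 with DESeq2, 90 and 172 with at least 500 genes, 103 and 163 with a mitochondrial limit of 20%, 89 and 173 with the strict gate, 12 and 33 after thinning to 500 UMIs, and 106 and 166 without hemoglobin and immunoglobulin genes. The higher genes alone became 78 without a filter, 48 without the replicate block and 72 against all other myeloid cells. Between conditions, the 53 higher and 33 lower genes became 23 and 77 with DESeq2, 7 and 2 with the replicate block, 90 and 101 without hemoglobin and immunoglobulin genes, and 96 and 93 without hemoglobin-bearing barcodes; 103 were higher without a filter and 57 lower with at least 500 genes. Leaving out a sample gave 0 to 92 higher and 0 to 56 lower, with 0 of both without control replicate 1, 92 higher and 12 lower without SP11 replicate 1, 51 and 20 without SP11 replicate 2, and 43 and 56 without control replicate 2, where the lone sample left in a group is assumed to vary like the others. The cause of these moves was not tested. Of 37 named genes called between classes, 13 (Tppp3, chosen for this pattern, among them) were called under every alternative with a test, 58 of 396 values lost the call and 0 changed direction. Neither class held a called doublet in the SP11 samples. Leaving doublets out therefore refitted the same counts, and its values among the 396 could not change. Each SP11 sample taken alone gave no reversal among 74 ratios. Of 14 named genes called between conditions, 5 (Ahnak, Crip1, Gm42418, S100a4 and Wfdc17) kept the call under every alternative except leaving out a sample, 13 of 111 values lost it and 0 changed direction.

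The share of Fn1-Vcan-Pid1 cells differed by 6.95 to 10.1 percentage points of kept cells and by 39.1 to 59.2 of the myeloid gate over the alternatives with shares, always higher with SP11. In edgeR on cell counts the log2 difference was 5.41 of kept cells and 3.45 of the myeloid gate, and the same with the replicate block; the population was chosen with this difference known. The replicate block on the gene counts is given above; the numbers only name the samples (their deviations from the group means had r = 0.057 across genes, over 2 pairs). The controls had 34 and 20 myeloid cells, which limits their precision.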
